A study of Mus musculus with 12 samples.

Results

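The 10 genes described here belong to the antioxidant program of the transcription factor NRF2 and to the thioredoxin and peroxiredoxin systems. They were *Nfe2l2*, *Keap1*, *Nqo1*, *Txnrd1*, *Txn1*, *Srxn1*, *Prdx1*, *Sod1*, *Cat* and *G6pdx*, chosen by symbol among the 55414 genes of the count table, and all 10 were among the 13857 genes abundant enough to be tested. Liver RNA of 12 female C57Bl/6J mice aged 8 to 12 weeks was sequenced, with 3 mice in each of 4 groups. Each mouse received 0.9% NaCl or 300 mg/kg FeSO4 intraperitoneally (i.p.), and 6 h later PBS or 10 mg/kg dexamethasone (DEX, a synthetic glucocorticoid) i.p. Livers were collected 2 h after that second injection, so that NaCl/PBS, NaCl/DEX, FeSO4/PBS and FeSO4/DEX livers were all taken 8 h after the first. No group carried a genotype other than that of the strain, as far as the labels say. The question addressed is how an acute iron load, DEX, and DEX on top of the iron load changed the mRNA of these genes.

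NRF2, encoded by *Nfe2l2*, is held by its adaptor KEAP1 and degraded in unstressed cells. Oxidants and electrophiles modify KEAP1, after which NRF2 accumulates, pairs with small MAF proteins and binds antioxidant response elements, while BACH1 and BACH2 compete for the same elements. Much of this control acts on NRF2 protein, which mRNA does not show. The thioredoxin system (TXN1, kept reduced by the selenoprotein TXNRD1 with NADPH) supplies electrons to the peroxiredoxins, which remove peroxides, and SRXN1 repairs over-oxidized peroxiredoxins. Superoxide dismutase 1 converts superoxide to hydrogen peroxide, catalase degrades hydrogen peroxide in peroxisomes, and glucose-6-phosphate dehydrogenase supplies NADPH. In the liver, hepatocytes are rich in catalase and store much of the body's iron, and ferrous iron turns hydrogen peroxide into hydroxyl radicals.

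Between 16335651 and 23827340 reads per library were counted on genes. Values are normalized counts, that is counts scaled by edgeR's TMM factors to a common library size, and log2 fold changes (LFCs) are from edgeR's quasi-likelihood test with Benjamini-Hochberg adjusted p-values (FDR). A gene is called changed at an FDR of 0.05 or less. All 7 hepatocyte markers matched by symbol were detected in every group, and 4 of them rose and 0 fell after FeSO4. Their summed normalized counts were 1892230 to 2257541 in NaCl/PBS mice and 2374088 to 2688261 in FeSO4/PBS mice. *Alb* made up most of these sums, with means of 1626387 and 1991802, while the mean of *Apob* went from 117939 to 96011. These 2 markers were named after their values were seen. FeSO4/PBS mouse 1 stood apart from the other mice of its group. Its chi-square per gene against them was 89.5 and 71.4, compared to 24 between mice 2 and 3 and 18.3 to 37 between mice of the other groups. It was the highest FeSO4/PBS mouse for 8 of the 10 genes, against 39.1% of all tested genes, so the FeSO4 results of these genes are given with and without it. The labels do not tie mice of the same number together.

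In NaCl/PBS livers the 10 genes spanned a wide range of mRNA levels. On the scale of normalized counts per exon length and library size (RPKM), *Cat* was highest at 528 ± 56.2 (SD, n = 3), followed by *Prdx1* at 171 ± 10.8. *Sod1* at 60.7 ± 5.96 and *Txn1* at 58.8 ± 3.05 did not differ beyond their spread, and *Txnrd1* was at 16.3 ± 1.6. The regulators *Nfe2l2* at 10.9 ± 0.953 and *Keap1* at 8.56 ± 0.651 were lower. *Srxn1* at 3.59 ± 0.232 and *Nqo1* at 3.46 ± 1.23 could not be ordered, and *G6pdx* was lowest at 0.884 ± 0.109. These levels depend on the exon length assigned to each gene, which the SDs between mice do not cover, so the order is not firm. With the length of the canonical transcript *Txn1* (164 ± 8.5) lay above *Sod1* (98.7 ± 9.7).

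FeSO4 raised 5 of the 10 genes compared to NaCl and lowered 0. The genes that rose were *Srxn1*, *Txnrd1*, *Nqo1*, *Sod1* and *Txn1*, while *Nfe2l2*, *Keap1*, *Prdx1*, *Cat* and *G6pdx* did not pass the test. Of all tested genes, 27.2% rose and 27.3% fell, so 5 of 10 stands beside a background in which more than 1 gene in 4 rose. The median LFC of the 10 genes was 0.53 and that of all tested genes −0.02. For the same 5 genes every FeSO4/PBS mouse lay above every NaCl/PBS mouse, as it did for 29% of all tested genes. An LFC above 1 together with a call was reached by 3 of the 10 genes (*Srxn1*, *Txnrd1* and *Nqo1*) and by 12.5% of all tested genes.

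**Figure D1:**
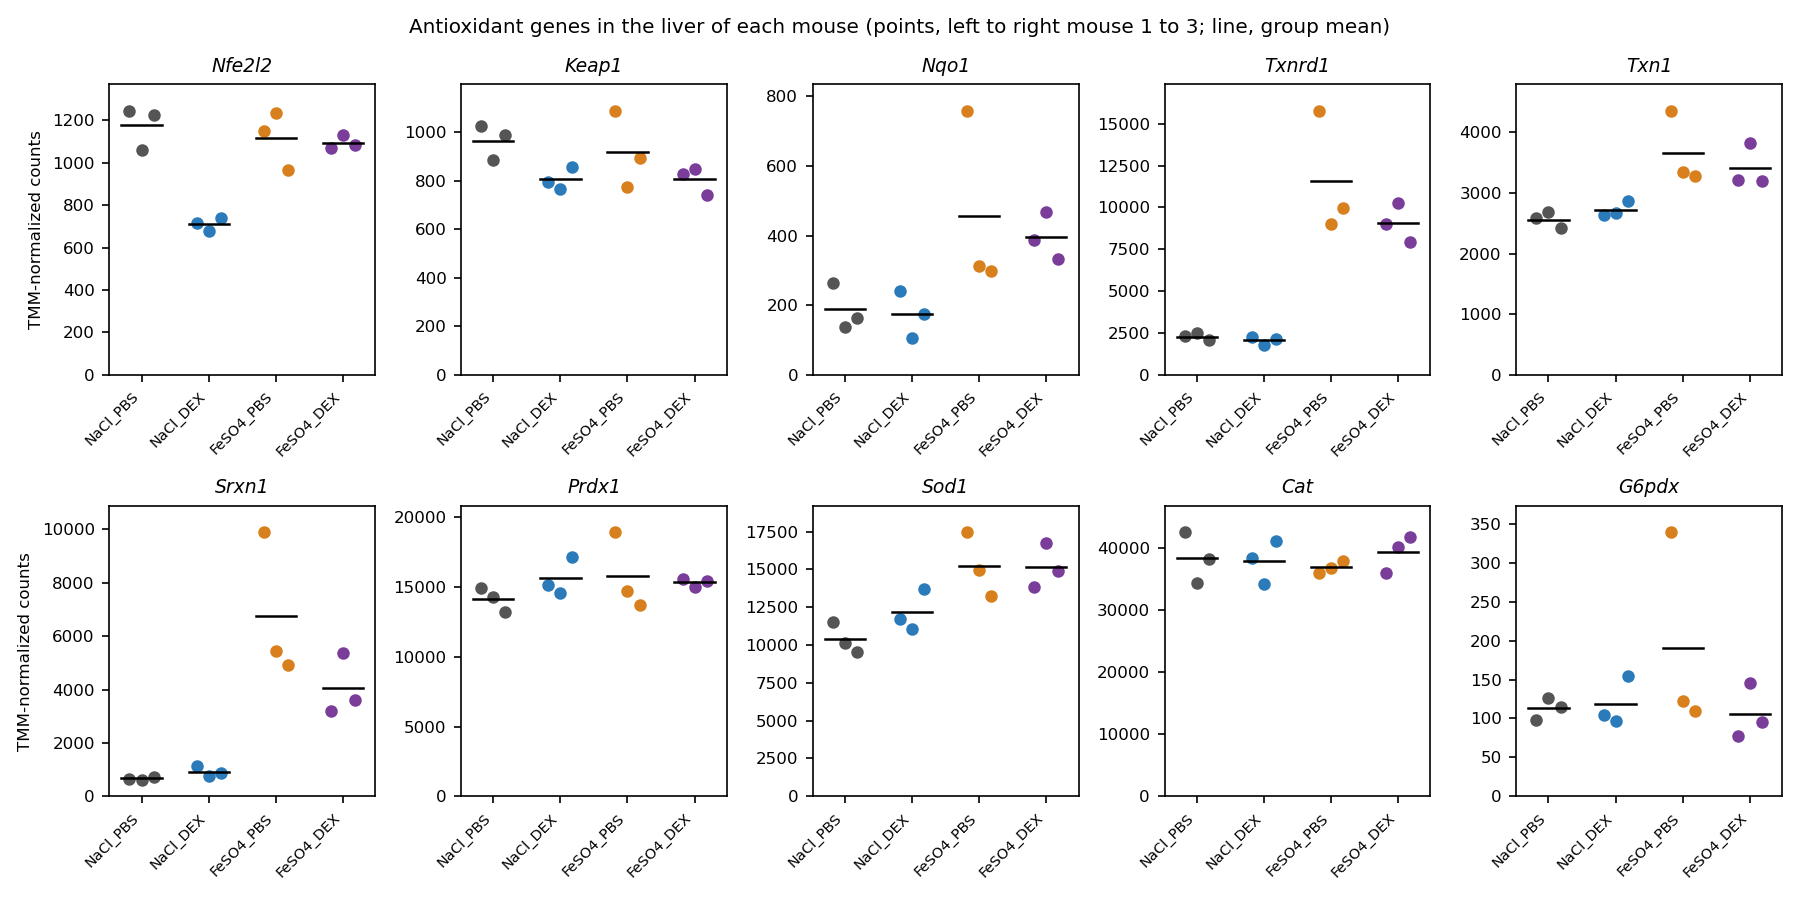
Normalized counts of the 10 genes (vertical axes, each from 0) in the 3 mice of each group (points), with group means as lines. *Srxn1* and *Txnrd1* were higher in all FeSO4 mice than in all NaCl mice, *Cat* overlapped throughout, and *Nfe2l2* was low in the 3 NaCl/DEX mice, at 680 to 737.

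*Srxn1* (ENSMUSG00000032802, chromosome 2, 151947436 to 151957687 on the forward strand, GRCm39), which encodes sulfiredoxin, changed most. Normalized counts were 665, 626 and 712 in NaCl/PBS mice 1 to 3 and 9885, 5456 and 4927 in FeSO4/PBS mice 1 to 3. Each iron-loaded mouse was thus far above the controls, although mouse 1 stood well above the other two. The LFC was 3.34 ± 0.27 (SE, n = 3 per group), a 10.1-fold rise with an edgeR FDR of 3.6e-07. Without FeSO4/PBS mouse 1 it was 2.96, with an edgeR FDR of 7.5e-08.

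*Txnrd1* (ENSMUSG00000020250, chromosome 10, 82669785 to 82733546, forward strand), the cytosolic thioredoxin reductase, followed. NaCl/PBS mice had 2303, 2504 and 2055 normalized counts and FeSO4/PBS mice 15762, 9019 and 9973. The groups were far apart and again mouse 1 was the highest. The LFC was 2.34 ± 0.19 (edgeR FDR 4.4e-07), a 5.06-fold rise, and 2.06 without FeSO4/PBS mouse 1 (edgeR FDR 8.4e-08). Its substrate *Txn1* (ENSMUSG00000028367, chromosome 4, 57934208 to 57956424, reverse strand) rose less. *Txn1* stood at 2586, 2680 and 2417 normalized counts in NaCl/PBS mice and 4353, 3337 and 3276 in FeSO4/PBS mice, without overlap. This gave an LFC of 0.51 ± 0.12 (edgeR FDR 0.0031), and 0.37 without FeSO4/PBS mouse 1 (edgeR FDR 0.0095).

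*Nqo1* (ENSMUSG00000003849, chromosome 8, 108113835 to 108129934, reverse strand), a quinone reductase often used as a readout of NRF2, was less certain. NaCl/PBS mice had 265, 138 and 162 normalized counts and FeSO4/PBS mice 758, 312 and 297. The groups did not overlap, but FeSO4/PBS mice 2 and 3 were only a little above the highest control. The LFC of 1.27 ± 0.36 (edgeR FDR 0.0086) rested on FeSO4/PBS mouse 1, since without it the LFC was 0.69 and the edgeR FDR 0.062.

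*Sod1* (ENSMUSG00000022982, chromosome 16, 90017408 to 90027657, forward strand), the cytosolic copper and zinc superoxide dismutase, rose in all 3 mice. It had 11520, 10143 and 9526 normalized counts in NaCl/PBS mice and 17442, 14962 and 13254 in FeSO4/PBS mice. The LFC was 0.55 ± 0.14 (edgeR FDR 0.0035), and 0.44 without FeSO4/PBS mouse 1 (edgeR FDR 0.012).

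*G6pdx* (ENSMUSG00000031400, chromosome X, 73449857 to 73472819, reverse strand), the first enzyme of the pentose phosphate pathway, was high in 1 mouse. NaCl/PBS mice had 98.5, 126 and 115 normalized counts and FeSO4/PBS mice 339, 122 and 110. Mice 2 and 3 lay within the range of the controls. The LFC was 0.76 ± 0.37 (95% interval −0.03 to 1.55, edgeR FDR 0.097). Without FeSO4/PBS mouse 1 the LFC was 0.04 (edgeR FDR 0.91), whereas without mouse 2 or mouse 3, when mouse 1 was 1 of 2 mice, the gene was called, with LFCs of 1.00 and 1.03.

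The other 4 genes overlapped between the groups. *Nfe2l2* (ENSMUSG00000015839, chromosome 2, 75504739 to 75534985, reverse strand) had 1244, 1058 and 1226 normalized counts in NaCl/PBS mice and 1150, 1235 and 967 in FeSO4/PBS mice, and its LFC was −0.07 (95% interval −0.31 to 0.16). *Keap1* (ENSMUSG00000003308, chromosome 9, 21141026 to 21150679, reverse strand) had 884 to 1026 in NaCl/PBS and 774 to 1088 in FeSO4/PBS mice, and its LFC was −0.07 (95% interval −0.34 to 0.20). Neither the factor nor its adaptor rose detectably in mRNA in the livers in which *Srxn1* and *Txnrd1* did. *Prdx1* (ENSMUSG00000028691, chromosome 4, 116532123 to 116558398, forward strand), a cytosolic peroxiredoxin, had 13185 to 14955 in NaCl/PBS and 13747 to 18918 in FeSO4/PBS mice (LFC 0.16, 95% interval −0.12 to 0.44). *Cat* (ENSMUSG00000027187, chromosome 2, 103284194 to 103316185, reverse strand) had 34390 to 42562 in NaCl/PBS and 36019 to 37936 in FeSO4/PBS mice (LFC −0.06, 95% interval −0.31 to 0.20). Without FeSO4/PBS mouse 1 the LFCs were −0.09 (*Nfe2l2*), −0.21 (*Keap1*), 0.01 (*Prdx1*) and −0.03 (*Cat*), none of them called. These intervals leave room for small changes in either direction.

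The calls of the smaller changes depend on how libraries are scaled. Scaling by library size alone moved the median LFC of all tested genes after FeSO4 from −0.02 to −0.34. On that scale *Srxn1*, *Txnrd1* and *Nqo1* were still called higher, *Txn1* (LFC 0.19, edgeR FDR 0.16) and *Sod1* (LFC 0.23, edgeR FDR 0.12) were not, and *Nfe2l2* (LFC −0.40), *Keap1* (LFC −0.39) and *Cat* (LFC −0.38) were called lower, close to the shift of the median. Markers of other cells changed with the same comparison. Of 7 Kupffer cell markers 7 fell, with summed normalized counts of 7608 to 8858 in NaCl/PBS and 3889 to 4581 in FeSO4/PBS mice. Of 6 tested neutrophil markers 5 rose, from 116 to 299 in NaCl/PBS to 777 to 936 in FeSO4/PBS mice. Among 6 endothelial markers 1 rose and 3 fell, and among 6 stellate cell markers 2 rose and 1 fell. Rises were called for 2 of 5 cholangiocyte and 2 of 4 tested erythroid markers. Falls were called for 1 of 5 tested lymphocyte and 1 of 2 tested mesothelial markers. Of all tested genes 27.2% rose and 27.3% fell. Their part in the values above was not tested, and in whole liver fewer cells of a type cannot be told apart from less RNA per cell.

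**Figure D2:**
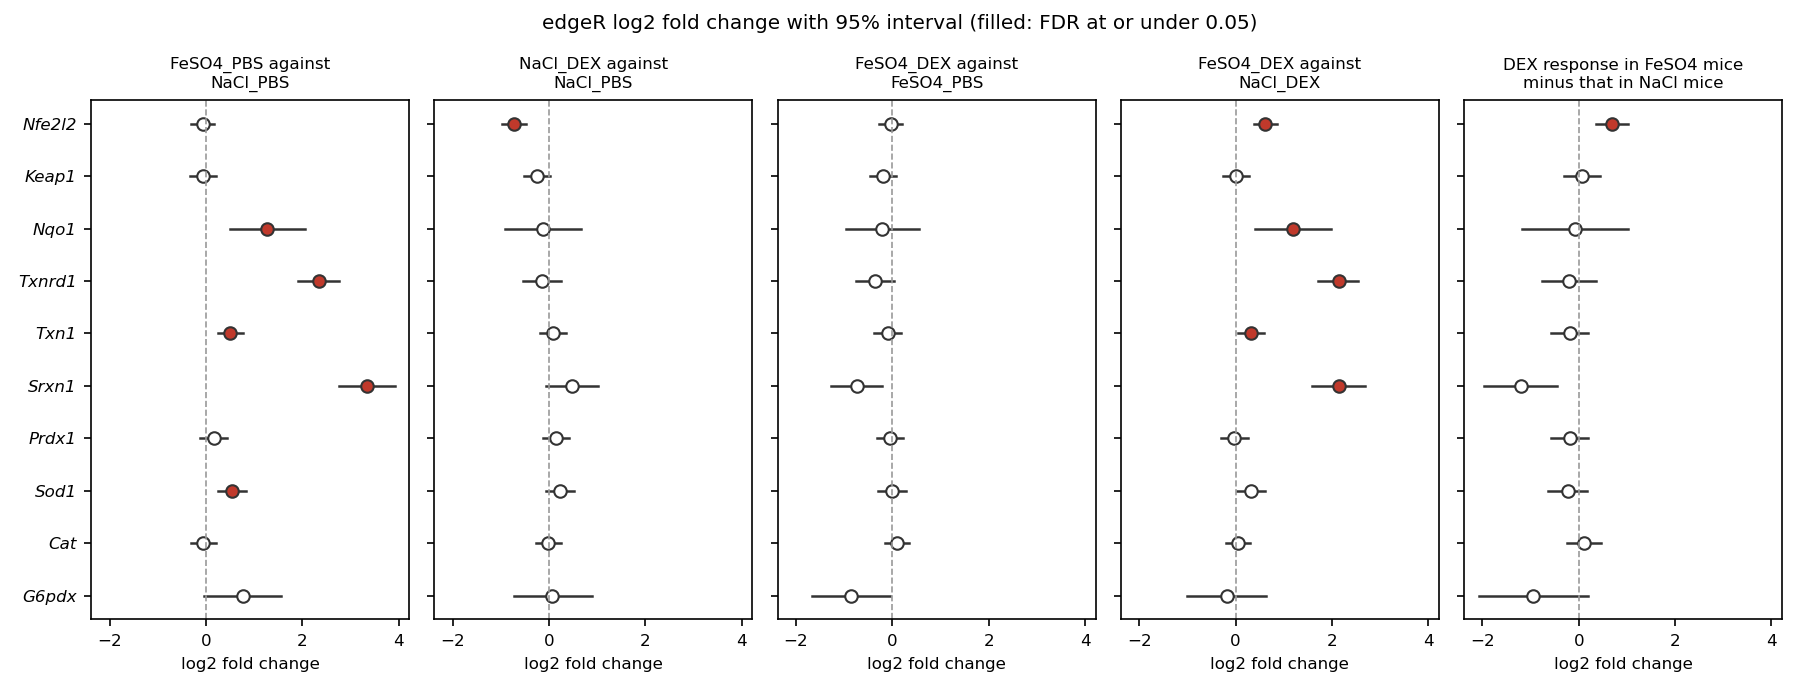
LFCs (horizontal axis, log2 scale) of the 10 genes in 5 comparisons with 95% intervals, filled where the edgeR FDR was 0.05 or less. After FeSO4 5 genes were called higher, from *Txn1* at 0.51 to *Srxn1* at 3.34, and DEX lowered *Nfe2l2* by an LFC of −0.73 in NaCl mice with 0 genes called in FeSO4 mice.

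Because several of these genes moved together, the DNA around their transcription start sites was searched for the letters of the antioxidant response element. The short form TGACNNNGC was searched on both strands from 1000 bases before to 50 bases after the start of the canonical GENCODE transcript in GRCm39. It was present for 5 of the 10 genes and in 31.8% of 13817 promoters of tested genes. Of the 5 genes that rose after FeSO4, *Txnrd1*, *Srxn1* and *Sod1* held it. *Nqo1* and *Txn1* had no match to these exact letters within this window. *Nfe2l2* and *Prdx1*, which were not called, held it too. The longer form TGACTCAGC, which includes a MAF half-site and overlaps the short form, was in 1.46% of promoters and among the 10 genes in that of *Prdx1* alone. The matches are shown because they allow the elements of induced and uninduced genes to be compared. They are printed 5′ to 3′ on the strand of the gene with 10 bases on either side and the matching letters in capitals, which read in reverse complement where the element lies on the opposite strand.
Srxn1, chr2:151947462-151947490: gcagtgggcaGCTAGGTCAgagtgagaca
Txnrd1, distal, chr10:82694632-82694660: caactatttgGCAGGGTCAcagccagtgc
Txnrd1, proximal, chr10:82694938-82694966: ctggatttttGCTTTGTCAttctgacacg
Sod1, chr16:90017303-90017331: ggcgcgctgtGCAAAGTCAgtgacaatcc
Prdx1, chr4:116542653-116542681: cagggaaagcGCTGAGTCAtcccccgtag
Nfe2l2, chr2:75535229-75535257: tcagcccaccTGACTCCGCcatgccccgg
The match of *Srxn1* lay 28 bases after the start site, those of *Txnrd1* at positions −371 and −65 relative to it, and those of *Sod1*, *Prdx1* and *Nfe2l2* at −95, −78 and −262. Of the forms searched, the longer was thus held by *Prdx1* alone, and *Srxn1* held the short form alone. Whether these elements bear on the responses of the genes was not tested. A match of letters is not evidence of binding, and a missing match is not evidence that no element is present. Elements outside the window, or inside it with other letters, were not searched.

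**Figure D3:**
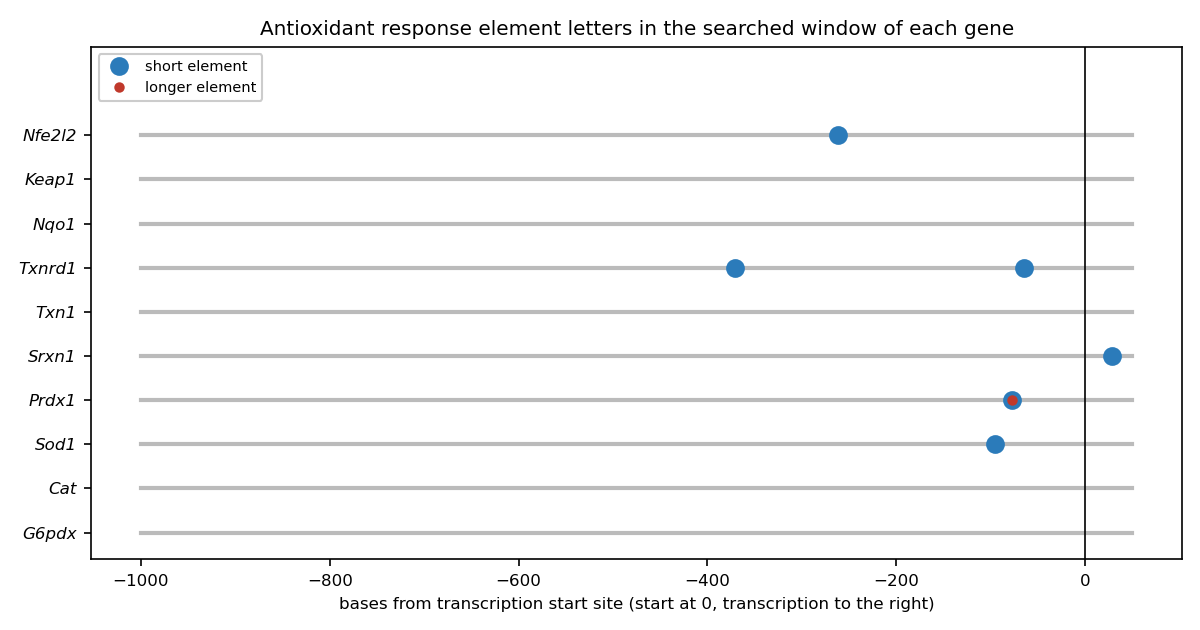
Positions of the short (blue) and longer (red) element letters in the searched window of each gene (grey lines), as bases from the transcription start site. *Txnrd1* held 2 short matches, at −371 and −65, and *Prdx1* at −78 held the longer form.

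DEX alone lowered *Nfe2l2* in NaCl mice. Normalized counts were 1244, 1058 and 1226 in NaCl/PBS mice and 714, 680 and 737 in NaCl/DEX mice, with all DEX-treated mice well below all controls. The LFC was −0.73 ± 0.11 (95% interval −0.97 to −0.49, edgeR FDR 0.00053), a level of 0.604 of the control. It was called in all 19 alternative fits, with LFCs between −0.88 and −0.68. *Nfe2l2* was 1 of 10 genes lowered, and 0 of 10 were raised. Of all tested genes, 7.15% fell and 6.5% rose after DEX in NaCl mice. Summed Kupffer cell markers were at 6765 to 7956 normalized counts in NaCl/DEX mice, overlapping their range in NaCl/PBS mice. Summed endothelial markers were at 5060 to 5877 in NaCl/PBS and 4044 to 4910 in NaCl/DEX mice, but the single markers did not move together. By group mean *Kdr* went from 1193 to 504, and *Pecam1*, *Stab2* and *Clec4g* were lower too. *Oit3* (620 and 676) and *Cdh5* (731 and 855) were higher in NaCl/DEX mice. Lymphocyte markers, with few reads, were at 73.9 to 91.4 and 38.3 to 55.8. Summed hepatocyte markers were higher after DEX, at 1892230 to 2257541 in NaCl/PBS and 2290308 to 2610400 in NaCl/DEX mice. *Alb*, with means of 1626387 and 1921934, made up most of these sums, and the mean of *Apob* was lower after DEX (117939 and 110654). These single markers were named after their values were seen. The part of these markers' cells in the fall of *Nfe2l2* was not tested. *Keap1* stood at 765 to 856 in NaCl/DEX mice, below its 884 to 1026 in NaCl/PBS mice, but was not called (LFC −0.26 ± 0.12, edgeR FDR 0.20). The groups were separated downwards in this way for 20.3% of all tested genes. *Srxn1*, with 1131, 762 and 878 normalized counts in NaCl/DEX mice, lay above its 3 controls, as did 17.6% of all tested genes, without passing the test (LFC 0.47 ± 0.25, edgeR FDR 0.26). It was called in 2 of 19 alternative fits, over which the edgeR FDR was 0.014 to 0.57. The other 7 genes had LFCs between −0.15 (*Txnrd1*) and 0.23 (*Sod1*), with overlapping mice.

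In FeSO4 mice, DEX changed none of the 10 genes by edgeR. The share of all tested genes called was 0%, with 900 genes (6.49%) at an unadjusted p under 0.05 and 11 called by DESeq2. *Nfe2l2* had 1150, 1235 and 967 normalized counts in FeSO4/PBS mice and 1071, 1132 and 1081 in FeSO4/DEX mice, which overlapped. The LFC was −0.03 with a 95% interval from −0.27 to 0.21, so a fall of the size seen in NaCl mice lay outside it. *Srxn1* had 9885, 5456 and 4927 in FeSO4/PBS mice and 3196, 5368 and 3611 in FeSO4/DEX mice, with the second FeSO4/DEX mouse inside the range of the FeSO4/PBS group. Its LFC was −0.74 (95% interval −1.27 to −0.21, edgeR FDR 0.71), and −0.38 without FeSO4/PBS mouse 1. *G6pdx* had 77.3, 145 and 95.1 in FeSO4/DEX mice, with an LFC of −0.86 (edgeR FDR 0.76) that became −0.17 without FeSO4/PBS mouse 1. *Srxn1* and *G6pdx* were the 2 genes of 10 with an unadjusted p under 0.05 here, and both were called in 1 alternative of 19, the fit with no filter on low counts. The remaining LFCs ranged from −0.35 (*Txnrd1*) to 0.09 (*Cat*).

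The DEX response of *Nfe2l2* differed between iron-loaded and NaCl mice. The difference of the 2 LFCs was 0.70 ± 0.16 (95% interval 0.36 to 1.03), with an edgeR FDR of 0.017 for the interaction term, and *Nfe2l2* was the 1 gene of 10 called. Of all tested genes, 2.99% were called with a difference above 0 and 3.2% with one below 0. The call was lost without NaCl/PBS mouse 1, when the difference was 0.64 (edgeR FDR 0.059). It was also lost without NaCl/PBS mouse 3, when the difference was 0.65 (edgeR FDR 0.054). The difference was called in 16 of 18 alternative fits, over which it was 0.59 to 0.82. Without FeSO4/PBS mouse 1 it was 0.68 (edgeR FDR 0.018). For *Srxn1* the difference was −1.20 ± 0.35 with an edgeR FDR of 0.061. It was called in 5 of 18 alternatives, including DESeq2 (−1.24, adjusted p 0.011), and stood at −0.87 (edgeR FDR 0.063) without FeSO4/PBS mouse 1, with adjusted p-values from 1.7e-07 to 0.14 over the alternatives. The others ranged from −0.94 (*G6pdx*, edgeR FDR 0.35) to 0.11 (*Cat*).

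Comparing the DEX-treated mice with each other, FeSO4 raised 5 of the 10 genes and lowered 0, against 22.4% raised and 20.9% lowered among all tested genes. *Srxn1* stood at 3196, 5368 and 3611 normalized counts in FeSO4/DEX mice and 1131, 762 and 878 in NaCl/DEX mice, an LFC of 2.14 ± 0.26 (edgeR FDR 1.8e-05). *Txnrd1* stood at 9005, 10251 and 7957 compared to 2237, 1783 and 2168, an LFC of 2.14 ± 0.19 (edgeR FDR 1.4e-06). Both groups were far apart for these 2 genes without any FeSO4/PBS mouse entering the comparison. *Nqo1* had 387, 469 and 333 compared to 240, 107 and 174, an LFC of 1.19 ± 0.37 (edgeR FDR 0.018). This was lost without FeSO4/DEX mouse 2 (LFC 1.02, edgeR FDR 0.068) and without NaCl/DEX mouse 2 (LFC 0.93, edgeR FDR 0.079). *Nfe2l2* was higher in FeSO4/DEX than in NaCl/DEX mice by an LFC of 0.62 ± 0.11 (edgeR FDR 0.00047), and these NaCl/DEX mice are the ones in which it was low. *Txn1* was close to the threshold, at 3217, 3821 and 3190 compared to 2631, 2675 and 2862, with an LFC of 0.32 (edgeR FDR 0.048). It was called in only 5 of 19 alternatives, with an edgeR FDR of 0.051 to 0.27 without any 1 of 10 mice, FeSO4/DEX mouse 2 giving the highest. *Sod1* was not called (LFC 0.32, edgeR FDR 0.072), although its 3 FeSO4/DEX mice, at 13863 to 16742, lay above the NaCl/DEX mice, at 11065 to 13709. Without NaCl/DEX mouse 3 it was called, with an LFC of 0.41 (edgeR FDR 0.048).

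Around the 10 genes, 77 other genes of the same pathways were grouped by role, of which 76 were tested. After FeSO4 43 of them rose and 8 fell, with a median LFC of 0.56, where 27.2% of all tested genes rose and 27.3% fell. Without FeSO4/PBS mouse 1 the counts were 38 and 8, and 5 fell without NaCl/PBS mouse 3 or FeSO4/PBS mouse 3. After DEX in NaCl mice 4 rose and 1 fell, with a median LFC of 0.12 (9 and 2 without FeSO4/PBS mouse 1) beside 6.5% raised and 7.15% lowered among all tested genes, and in FeSO4 mice 0 were called. Between the DEX-treated groups 29 were higher after FeSO4 and 6 lower (30 and 11 without FeSO4/PBS mouse 1), beside 22.4% and 20.9% of all tested genes. For most genes called after FeSO4 and named below, omitting FeSO4/PBS mouse 1 changed no FeSO4 call and moved folds at most 1.33 times. The exceptions were *Pgd*, *Slc7a11*, *Msra*, *Msrb2*, *Cbr1*, *Cbr3*, *Blvrb* and *Osgin1*. *Osgin1* had an LFC of 1.14 that fell to 0.48 (edgeR FDR 0.13). The FeSO4 counts of the lists below stand beside the same 27.2% raised and 27.3% lowered among all tested genes. These lists were chosen with earlier results of these data known. Exons of 43 of the 77 genes overlap those of another gene in the annotation, among them *Maff*, *Bach2*, *Sqstm1*, *Txnip*, *Sod2* and *Tkt*. Such overlaps are not given here for the 10 genes. The strand setting of the deposited counts is not given in the sources used here.

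**Figure D4:**
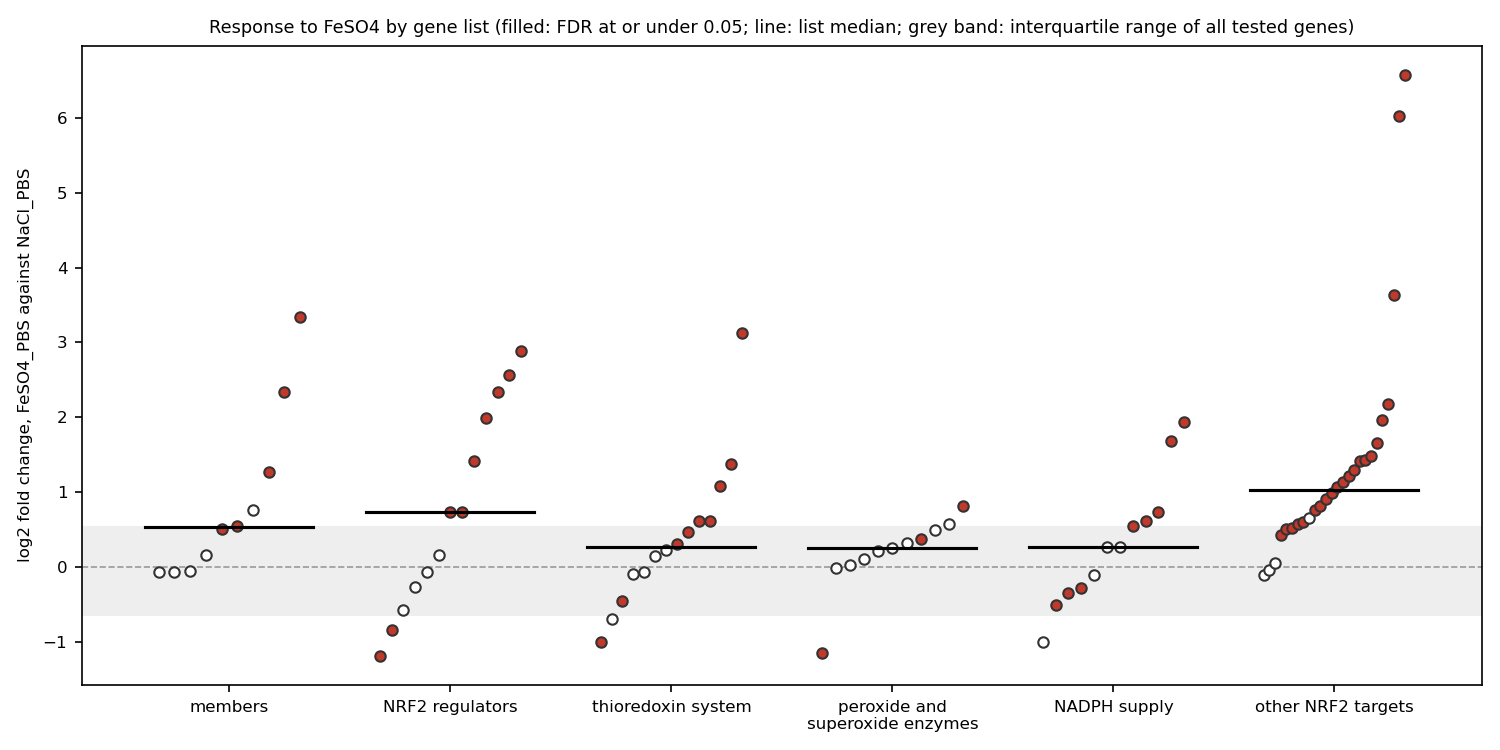
LFCs after FeSO4 (vertical axis, log2 scale) of the 10 genes (members) and of the 5 role lists, each point 1 gene, filled where the edgeR FDR was 0.05 or less, with the list median as a line and the interquartile range of all tested genes as a grey band. The other NRF2 targets had a median of 1.03 and 22 of 26 genes raised, and the peroxide and superoxide enzymes had 2 of 11 raised.

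Among 13 regulators of NRF2, 7 rose and 2 fell after FeSO4 (median LFC 0.74, with 27.2% of all tested genes raised and 27.3% lowered). *Maff*, a small MAF protein, rose from 105 to 126 normalized counts in NaCl/PBS mice to 559 to 1286 in FeSO4/PBS mice, and its LFC was 2.88 ± 0.29 (edgeR FDR 2.4e-06). *Bach2*, a repressor at antioxidant response elements, rose by an LFC of 2.56 ± 0.41 (edgeR FDR 0.00012). FeSO4/PBS mouse 1, at 174 normalized counts, was here the lowest of its group, whose others were at 514 and 802. *Sqstm1*, whose product p62 binds KEAP1, rose from 5451 to 5863 normalized counts to 23677 to 38151, with an LFC of 2.34 ± 0.18 (edgeR FDR 2.8e-07). The 2 that fell were *Nfe2l1*, a relative of *Nfe2l2* (LFC −1.19), and *Btrc*, a subunit of a ubiquitin ligase (LFC −0.84). Both were named after their values were seen.

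Of 14 other genes of the thioredoxin system, a list of thioredoxins, glutaredoxins and methionine sulfoxide reductases, 7 rose and 2 fell (median LFC 0.26), beside 27.2% raised and 27.3% lowered among all tested genes. Both that fell were methionine sulfoxide reductases, *Msrb1* (LFC −0.45, edgeR FDR 0.012) and *Msrb2* (LFC −1.01, edgeR FDR 0.024), which repair oxidized methionine, and *Msra* (LFC 0.30) and *Msrb3* (LFC 0.47) were among the 7 that rose. These 4 were named after their values were seen. *Msra* was not called without FeSO4/PBS mouse 1 (LFC 0.22, edgeR FDR 0.13), and *Msrb2* then had an LFC of −1.78. *Txnip*, which binds and inhibits thioredoxin, rose from 1412 to 3546 normalized counts to 10483 to 25012, with an LFC of 3.12 ± 0.37 (edgeR FDR 1.2e-05). The glutaredoxins *Glrx5* and *Glrx* had LFCs of 1.38 ± 0.14 and 1.08 ± 0.14. The mitochondrial partners of the 2 cytosolic genes were not called, *Txn2* with an LFC of 0.22 (edgeR FDR 0.24) and *Txnrd2* with −0.10 (edgeR FDR 0.50), while *Txnrd3* rose by 0.61 (edgeR FDR 0.0041). Whether *Txnrd1* and *Txnrd2* differed in response was not tested.

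Among 11 other peroxide and superoxide enzymes, 2 were raised and 1 was lowered (median LFC 0.25), beside 27.2% raised and 27.3% lowered among all tested genes. None of *Prdx2* to *Prdx6* was called, with LFCs from −0.01 (*Prdx2*) to 0.32 (*Prdx5*, edgeR FDR 0.064), which with *Prdx1* makes 0 of 6 peroxiredoxins. Exons of *Prdx2*, *Prdx4*, *Prdx5* and *Prdx6* overlap other genes. The mitochondrial and extracellular superoxide dismutases *Sod2* and *Sod3* rose by LFCs of 0.81 ± 0.21 (edgeR FDR 0.0043) and 0.37 ± 0.13 (edgeR FDR 0.03). *Sesn3*, a sestrin, fell by 1.15 on the log2 scale (edgeR FDR 0.00069).

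Of 12 tested genes of NADPH supply beside *G6pdx*, 5 rose and 3 fell (median LFC 0.27), beside 27.2% and 27.3% of all tested genes. *Rpia* and *Pgd*, enzymes of the pentose phosphate pathway, had LFCs of 1.94 ± 0.24 (edgeR FDR 1.5e-05) and 1.68 ± 0.33 (edgeR FDR 0.00068), and *Tkt*, the transketolase, one of 0.74 ± 0.14 (edgeR FDR 0.00054). FeSO4/PBS mouse 1 stood at 4051 normalized counts of *Pgd*, mice 2 and 3 at 1307 and 1437 and the NaCl/PBS mice at 692 to 718, and without mouse 1 the LFC was 0.96 (edgeR FDR 0.00012). *G6pd2*, the retrotransposed copy of *G6pdx*, had 0 to 1 reads per library and was not tested.

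Of 26 other NRF2 targets 22 rose and 0 fell (median LFC 1.03), beside 27.2% raised and 27.3% lowered among all tested genes. Between the DEX-treated groups 14 were higher after FeSO4 and 0 lower (median LFC 0.62), beside 22.4% and 20.9% of all tested genes. Without FeSO4/PBS mouse 1 the FeSO4 calls of *Osgin1*, *Cbr1*, *Cbr3* and *Blvrb* were lost (edgeR FDR 0.13, 0.067, 0.49 and 0.19). *Abcc4* was then called (LFC 0.89, edgeR FDR 0.012). *Cbr1*, *Cbr3*, *Blvrb* and *Abcc4* were named after their values were seen. *Hmox1*, heme oxygenase 1, stood at 427 to 791 normalized counts in NaCl/PBS mice and 29684 to 40304 in FeSO4/PBS mice, and its LFC was 6.02 ± 0.26 (edgeR FDR 3.3e-09). *Slc7a11*, the cystine transporter, had 3, 0 and 1 reads in NaCl/PBS mice and 226, 63 and 42 in FeSO4/PBS mice, and called at an edgeR FDR of 2.8e-05 it is given without a fold because the control level rests on so few reads. *Akr1b8*, an aldo-keto reductase, rose by 2.18 ± 0.18 (edgeR FDR 4.7e-07).

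Beyond *Nfe2l2*, 4 of these 76 genes differed in their DEX response between iron-loaded and NaCl mice, 1 with a difference above 0 and 3 below, a count near the 2.99% and 3.2% of all tested genes. *Maff* rose after DEX in NaCl mice by an LFC of 2.62 ± 0.29 (edgeR FDR 4e-05) and had an LFC of 0.66 (edgeR FDR 0.73) in FeSO4 mice, a difference of −1.96 ± 0.38 (edgeR FDR 0.0078). For *Bach2* the LFCs were 1.99 ± 0.40 and −0.18, a difference of −2.17 ± 0.55 (edgeR FDR 0.032). *Osgin1*, an oxidative stress-induced growth inhibitor, fell from 2260 to 3632 normalized counts in NaCl/PBS mice to 221 to 385 in NaCl/DEX mice. It stood at 3128 to 11516 in FeSO4/PBS and 3453 to 4507 in FeSO4/DEX mice, a difference of 2.46 ± 0.51 (edgeR FDR 0.011). *Gstm3*, a glutathione transferase of a family with similar sequences, had DEX LFCs of 1.62 ± 0.36 in NaCl and −0.15 in FeSO4 mice. Its difference was −1.77 ± 0.50 (edgeR FDR 0.049). *Maff*, *Bach2* and *Gstm3* were already raised by FeSO4 without DEX. Their means in FeSO4/PBS and NaCl/DEX mice were 852 and 713 (*Maff*), 497 and 333 (*Bach2*) and 2173 and 2494 (*Gstm3*). Whether these levels bear on the differences was not tested. The differences of *Maff* and *Osgin1* were called in all 18 alternative fits, with edgeR FDRs or DESeq2 adjusted p-values of at most 0.026 and 0.032. That of *Bach2* was called in 8 and that of *Gstm3* in 6, with adjusted p-values of up to 0.079 and 0.12, and calls of both were lost without NaCl/PBS mouse 2 or 3, NaCl/DEX mouse 1 or 3, FeSO4/PBS mouse 2 or FeSO4/DEX mouse 1. *Osgin1* and *Gstm3* were named after their values were seen.

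**Figure D5:**
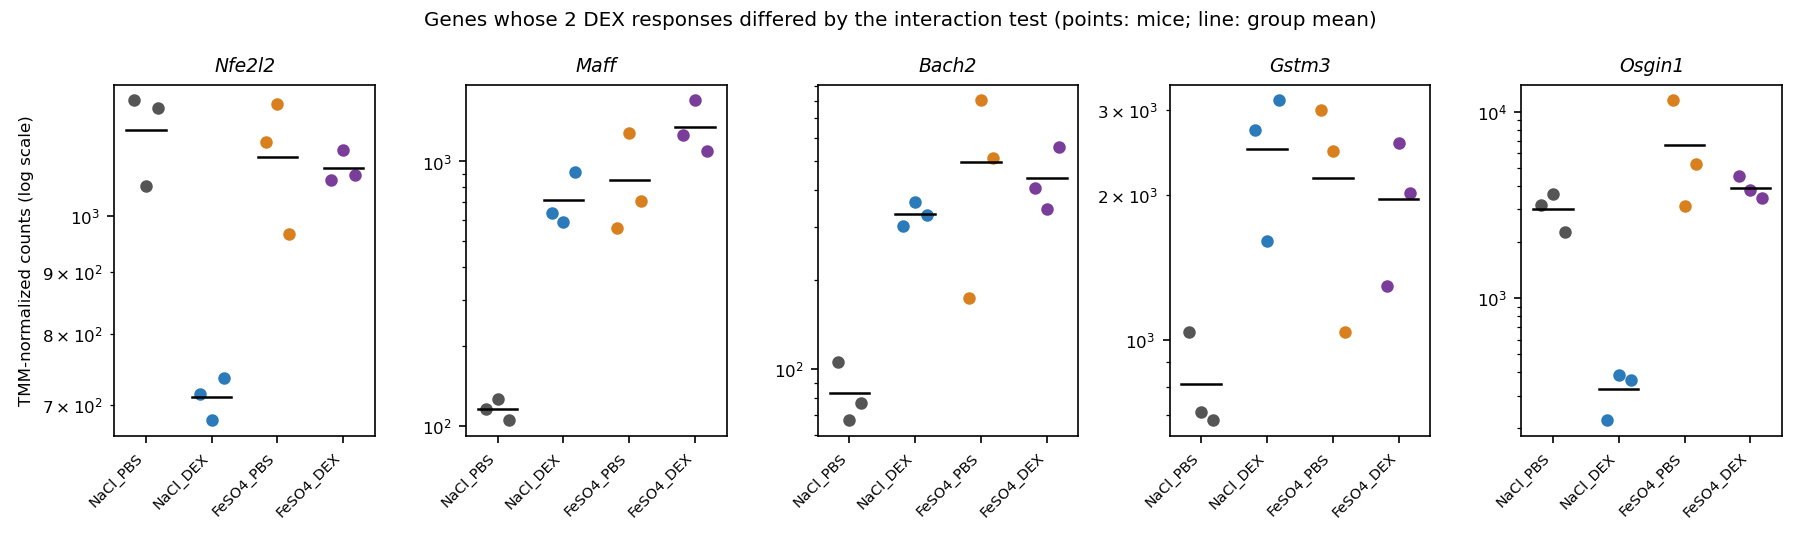
Normalized counts (log axes) of *Nfe2l2* and of the 4 other pathway genes with an interaction called at an edgeR FDR of 0.05 or less, with points as mice and lines as group means. *Nfe2l2* and *Osgin1* were low in the 3 NaCl/DEX mice and not in the FeSO4/DEX mice, and *Maff* and *Bach2* were low in the NaCl/PBS mice.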

How the data were processed

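Liver mRNA of 12 mice was sequenced by the authors from stranded libraries as single-end reads, which were mapped to mm39 with STAR 2.7.10b. The deposited values are raw counts per Ensembl gene, without normalization. Symbols came from GENCODE vM39 for 54749 of 55414 genes, and 1 hepatocyte marker, written as Tf, matched no symbol. From the counts, 13857 genes passed edgeR's filter and entered 1 quasi-likelihood model of 4 group means with TMM factors (R 4.3.3, edgeR 4.0.16, limma 3.58.1, DESeq2 1.42.0). The model was run on simulated data with 200 changed genes, as many raised as lowered, and no outlying mouse. Far more genes changed in the real data, so the simulation does not test the scaling or the weight of FeSO4/PBS mouse 1. The biological coefficient of variation was 0.169. Python 3.11.15 and matplotlib 3.10.9 were used for summaries and plots. LFCs used a prior count of 0.125, and profiles a pseudocount of 0.5.

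Named were the 10 genes, their paralogs, up to 3 genes per role list with the largest LFC after FeSO4 among those called, not overlapping and with at least 100 normalized counts in the higher group, and the 3 genes nearest in profile to 5 of the genes. The genes, lists and motif letters were chosen with earlier results of these data known. Alternatives were DESeq2, its size factors, library size alone, no filter, a minimum of 10 counts per library, a replicate block, separate fits of each comparison's mice, an LFC beyond 1, and each mouse left out. Nothing in the labels says whether the mice were handled as separate experiments, so p-values measure the spread between these mice. Both the 3 mice per group and, for genes with few reads, the depth limit the precision. *Txn-ps1* and *Prdx1-ps*, copies of *Txn1* and *Prdx1*, had at most 1 and 2 reads in any library.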

Additional observations from a re-analysis of the deposited data

Results flagged for a closer look

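DEX lowered *Nfe2l2* in NaCl mice (LFC −0.73) and left it with an LFC of −0.03 in FeSO4 mice, a difference of 0.70 on the log2 scale (± 0.16 SE, edgeR FDR 0.017, 3 mice per group), which drew attention because a test of the difference itself passed the threshold. All 3 NaCl/DEX mice lay below all 3 NaCl/PBS mice, whereas FeSO4/DEX and FeSO4/PBS mice overlapped. The call was lost without NaCl/PBS mouse 1 or mouse 3. Of all tested genes, 2.99% were called with a difference above 0 and 3.2% with one below 0, beside 1 of the 10 genes. In FeSO4 mice 0% of all tested genes were called after DEX, so a missing response there was not particular to *Nfe2l2*.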

How the results depend on the processing

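Of 940 member LFCs under alternatives, 866 kept direction and call, 21 lost the call, 18 gained it and 35 changed sign. None of those 35 was called before or after, and their main values were at most 0.21 in size. The sign changes outside the left-out mice were, with library size alone, *Nqo1* 0.06 (difference of the DEX responses), *Txn1* −0.06, *Prdx1* −0.01 and *G6pdx* −0.08 (DEX in NaCl mice), *Prdx1* −0.16 (FeSO4) and *Cat* −0.15 (FeSO4 in DEX-treated mice), and *Cat* 0.01 (DEX in NaCl mice) with DESeq2 and with its size factors. With a mouse left out, LFCs that changed sign ranged, for FeSO4, from −0.15 to 0.02 (*Nfe2l2*), −0.21 to 0.04 (*Keap1*) and −0.13 to 0.03 (*Cat*). For DEX in NaCl mice they ranged from −0.43 to 0.22 (*Nqo1*), −0.08 to 0.07 (*Cat*) and −0.16 to 0.21 (*G6pdx*). For DEX in FeSO4 mice they ranged from −0.13 to 0.05 (*Nfe2l2*), −0.44 to 0.35 (*Nqo1*), −0.21 to 0.02 (*Txn1*), −0.14 to 0.09 (*Prdx1*) and −0.10 to 0.08 (*Sod1*). For FeSO4 in DEX-treated mice they ranged from −0.08 to 0.04 (*Prdx1*), −0.03 to 0.11 (*Cat*) and −0.50 to 0.06 (*G6pdx*), and for the difference of the DEX responses from −0.04 to 0.17 (*Keap1*), −0.43 to 0.46 (*Nqo1*) and −0.36 to 0.04 (*Txnrd1*).

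Members called higher after FeSO4 numbered 4 to 6 with a mouse left out, 3 with an LFC beyond 1 and 3 with library size alone, where 3 were called lower. Between DEX-treated mice 3 to 5 were called higher with a mouse left out, and 3 beyond an LFC of 1. For DEX in NaCl mice, 1 was called higher with no filter and in the fit of the comparison's libraries alone, and 2 lower with library size alone and 0 beyond an LFC of 1. For DEX in FeSO4 mice, 2 were called lower with no filter. For the difference of the DEX responses, 0 to 1 were called higher and 0 to 1 lower with a mouse left out, 0 higher beyond an LFC of 1, 1 lower with DESeq2 and 2 lower with no filter.

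Of the other pathway genes, 36 to 44 were higher and 5 to 8 lower after FeSO4 with a mouse left out, 23 and 3 beyond an LFC of 1, and 18 lower with library size alone. Between DEX-treated mice 21 to 30 were higher and 5 to 11 lower with a mouse left out, 17 and 2 beyond an LFC of 1, with 12 lower with library size alone and 10 in the fit of those libraries alone. For DEX in NaCl mice 3 to 9 were higher and 1 to 2 lower with a mouse left out, 9 and 3 with no filter, 9 higher with DESeq2, 7 and 2 in the fit of those libraries alone, and 3 lower with library size alone. For DEX in FeSO4 mice 1 was higher and 2 lower with no filter. For the difference of the DEX responses, 1 to 3 were lower with a mouse left out and 10 with no filter. The causes of these shifts were not tested.

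Mice of the same number shared little of their deviation from the group means, with correlations from −0.075 to 0.129. Such correlations cannot show whether these mice were handled together, which the labels do not say. With the replicate block the difference of the DEX responses was called lower for 1 other pathway gene instead of 3, *Txn1* lost its call between DEX-treated mice (LFC 0.32, edgeR FDR 0.069), and uncalled *Nqo1* changed sign (0.05, difference of the DEX responses). With the length of the canonical transcript, chosen after seeing the data, levels per length in NaCl/PBS mice were 742 (*Cat*), 267 (*Prdx1*), 164 (*Txn1*), 98.7 (*Sod1*), 34.7 (*Txnrd1*), 16.5 (*Nfe2l2*), 15.2 (*Keap1*), 4.68 (*Srxn1*), 3.56 (*Nqo1*) and 0.969 (*G6pdx*).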

Other observations

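Genes with the profile over 12 libraries most like that of a given gene were found by the root mean square difference of log2 normalized counts, each set to 0 at its NaCl/PBS mean, among 8949 genes with at least 100 normalized counts on average. For *Nfe2l2* they were *Fnbp1* (0.14), *Tnrc6a* (0.15) and *Sema4a* (0.16), and *Fnbp1* stood at 439 ± 40.3 normalized counts (SD) in NaCl/PBS and 268 ± 14.3 in NaCl/DEX mice. For *Txnrd1* they were *Pcid2* (0.13), *Sqstm1* (0.16) and *Nfkbib* (0.16). *Pcid2* rose from 214 ± 25.8 normalized counts in NaCl/PBS to 1037 ± 359 in FeSO4/PBS mice. For *Nqo1* they were *Snhg12* (0.29), *Snhg6* (0.31) and the ferritin light chain gene *Ftl1* (0.32), the last at 18107 ± 3423 in NaCl/PBS and 41773 ± 13752 in FeSO4/PBS mice. *Srxn1* had no close neighbour, the nearest being *Snhg5* (0.38), *Agt* (0.43) and *Slc25a47* (0.43). For *Cat* the nearest were *Slc44a1*, *Mthfsl* and *Pex7*, a peroxisomal import receptor, each at 0.07. A flat profile has many close neighbours, so the distances of *Cat* and of the induced genes are not comparable.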
